A study of Rattus with 6 samples.

Results

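The circular RNA (circRNA) probes of a rat array were examined in spinal cord after injury. The array design marks 3046 of its 60148 probes as circRNA probes by their identifiers, and the other 57102 are here called linear probes. Members are the circRNA probes well above background throughout the 3 sham arrays or throughout the 3 spinal cord injury (SCI) arrays, 2842 of the 3046 (93.3%). The same condition held for 39447 of the 57102 linear probes (69.1%). The probes of the array came with a design identifier and a sequence but no gene name. Neither the host gene of a circRNA nor the cell type markers of the tissue could therefore be read.

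Each array carried RNA of the spinal cord tissue of 1 adult male Sprague-Dawley rat, labelled non-SPF. The 3 SCI rats were injured at thoracic level T10 by the modified Allen method, in which a hammer of 10 g and 2.5 mm in diameter fell from 8 cm onto the exposed cord, and the cord was taken 3 days later. The 3 sham rats had the laminectomy, the removal of the bone over the cord, without the blow. Total RNA was labelled with cyanine-3 as cRNA and hybridized in one colour.

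A circRNA is made when the splicing machinery joins the end of an exon backwards to the start of the same or an earlier exon, so that the RNA closes into a ring. A ring has no free ends and no poly(A) tail, is resistant to exonucleases and is long-lived, and circRNAs are abundant in nervous tissue. The bases on either side of a back-splice junction also occur in the linear transcripts of the same gene, and only the join between them is particular to the ring. No RNase R treatment, which digests linear RNA, and no primer for the labelling reaction are given in the sources used here.

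The level of a probe is given as the deposited log2 value after quantile normalization, averaged over the 6 arrays unless stated otherwise, and a change is SCI minus sham on the log2 scale. Levels depend on the probe's sequence as well as on the amount of RNA, so that the order of levels is an order of signals. The groups lay on separate slides, scanned 227 days apart, and 0 slides held both groups: injury and slide cannot be told apart in any difference below. In a tissue sample, fewer cells of a type and less RNA per cell cannot be told apart either.

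The probes were 60 bases long and crossed the junction at a place that differed from probe to probe. The place was inferred from the probe's own name, whose first number after the identifier, taken from 45, was read as the bases before the junction. No source used here states this rule. It was inferred from these same probes, so the matches below are not independent of it. Of 131 circRNA probes' matches to other probes that began at the 5′ end and stopped inside, 128 stopped at this place or up to 4 bases past it, 86 of them exactly there. All 103 matches that began inside and ran to the 3′ end started there or up to 5 bases before it, 38 of them exactly there. The stretch before the junction, the 5′ arm, ran from 29 to 45 bases with a median of 36, and the 3′ arm after it from 15 to 31. The bases AG, with which rat exons often end, stood just before the junction in 1775 probes (58.3%), against 8.03% of the other positions. AG before and G after it occurred in 767 probes (25.2%), against 1.39% of the other positions.

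The 5 probes with the highest level, the 5 with the largest rise and the 5 with the largest fall carry most of the extremes described below. They are shown 5′ to 3′, with the bases after the junction in capitals. The first 5 are those of the highest level.
RNO_CIRCpedia_4353_10_9: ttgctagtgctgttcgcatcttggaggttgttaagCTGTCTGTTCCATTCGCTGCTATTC
RNO_CIRCpedia_2212_9_16: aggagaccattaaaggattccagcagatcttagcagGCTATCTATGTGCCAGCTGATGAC
RNO_CIRCpedia_2993_6_17: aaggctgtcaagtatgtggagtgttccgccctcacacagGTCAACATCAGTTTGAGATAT
RNO_CIRCpedia_4559_0_12: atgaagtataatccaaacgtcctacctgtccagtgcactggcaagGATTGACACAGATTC
RNO_CIRCpedia_8925_0_10: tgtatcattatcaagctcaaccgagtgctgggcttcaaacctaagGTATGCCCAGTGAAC
The next 5 had the largest rise after SCI among the members well above background on all 6 arrays.
RNO_CIRCpedia_5625_1_12: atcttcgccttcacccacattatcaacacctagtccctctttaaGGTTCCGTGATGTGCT
RNO_CIRCpedia_9210_0_27: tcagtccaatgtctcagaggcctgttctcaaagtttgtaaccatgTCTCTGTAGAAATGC
RNO_CIRCpedia_2816_2_14: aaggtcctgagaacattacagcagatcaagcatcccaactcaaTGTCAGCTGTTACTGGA
RNO_CIRCpedia_2817_10_33: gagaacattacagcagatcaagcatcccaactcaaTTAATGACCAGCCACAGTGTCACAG
RNO_CIRCpedia_9131_2_16: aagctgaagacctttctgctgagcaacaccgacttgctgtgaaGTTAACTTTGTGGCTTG
The last 5 had the largest fall among these members.
RNO_CIRCpedia_8736_7_29: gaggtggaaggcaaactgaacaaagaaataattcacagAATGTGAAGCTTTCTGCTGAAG
RNO_CIRCpedia_9904_16_25: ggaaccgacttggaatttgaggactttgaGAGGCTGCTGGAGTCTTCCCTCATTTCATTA
RNO_CIRCpedia_6306_4_22: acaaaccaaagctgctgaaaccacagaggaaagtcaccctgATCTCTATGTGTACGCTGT
RNO_CIRCpedia_4762_13_27: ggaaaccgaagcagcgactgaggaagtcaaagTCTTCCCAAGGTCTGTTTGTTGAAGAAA
RNO_CIRCpedia_2431_16_10: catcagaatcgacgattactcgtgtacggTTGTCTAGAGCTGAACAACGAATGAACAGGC

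By level, 880 members (31.0%) were under 6, 1547 (54.4%) lay from 6 to 9, and 415 (14.6%) were at 9 or more. Among the linear probes kept, 27.4% were at 9 or more. The median level was 6.89 for the members and 7.13 for the linear probes kept, and the members ran from 2.41 to 15.66. At the upper end, 39 members reached 12 and 6 reached 14. On the sides of the thresholds, RNO_CIRCpedia_1838_14_18 at 5.9973 and RNO_CIRCpedia_6647_0_4 at 6.0002 were the nearest to 6, and RNO_CIRCpedia_5603_1_19 at 8.9996 and RNO_CIRCpedia_1267_14_26 at 9.0023 the nearest to 9. The members under 6 had a median 5′ arm of 32 bases, those from 6 to 9 of 38 and those at 9 or more of 40. GC content lay between 40% and 46.7% in every circRNA probe, with a median of 45% at each of the 3 levels. Its Pearson correlation with level over the 2842 members, which share the 6 arrays, was 0.11. The spread between replicates narrowed with level: for members well above background on all 6 arrays, the median SD within sham (n = 3) was 0.18 under 6, 0.13 from 6 to 9 and 0.10 at 9 or more.

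The highest level belonged to RNO_CIRCpedia_4353_10_9, with a mean of 15.66. Its sham arrays gave 15.79, 15.80 and 15.76 and its SCI arrays 15.47, 15.46 and 15.67. Every SCI array was below every sham array, yet the change of -0.25 (SE 0.10, adjusted p = 0.075 in limma) did not pass the test. Its change passed the p threshold with normexp, a model-based background correction of the scanner signals (-0.26, adjusted p = 0.012 in limma). Normexp was run with an offset of 50 added to each signal, which makes the log2 changes of dim probes smaller. The change of this probe was called with the scaling on spike-in RNAs described below (-1.64, adjusted p = 1.3e-05 in limma). RNO_CIRCpedia_2212_9_16 followed at 15.65, with 16.03, 16.11 and 16.09 in sham and 15.17, 15.16 and 15.34 in SCI. Its change of -0.85 (SE 0.10, adjusted p = 0.00073 in limma) passed the p threshold but was under 2-fold, and was -2.20 with the spike-in scaling. The mean levels of these top 2 probes over all arrays lay close together, while their order differed between the groups. In sham RNO_CIRCpedia_2212_9_16 was the higher on every array (mean 16.08 against 15.78). In SCI RNO_CIRCpedia_4353_10_9 was the higher on every array (mean 15.53 against 15.23). Since the probes differ in sequence, this is an order of signals. RNO_CIRCpedia_2993_6_17 gave 14.71, 14.71 and 14.85 in sham and 15.19, 15.19 and 15.22 in SCI. It was the only one of the 5 that was higher in SCI, by 0.45 (SE 0.10, adjusted p = 0.0072 in limma), less than 2-fold. With the spike-in scaling its change was -0.98.

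The other 2 of the top 5 fell by more than 2-fold. RNO_CIRCpedia_4559_0_12 gave 15.67, 15.72 and 15.62 in sham and 13.73, 14.23 and 14.59 in SCI, a change of -1.49 (SE 0.22, adjusted p = 0.0015 in limma). RNO_CIRCpedia_8925_0_10 gave 15.06, 15.11 and 15.10 in sham and 12.85, 13.38 and 13.77 in SCI, a change of -1.76 (SE 0.23, adjusted p = 0.001 in limma). The SD within sham was 0.05 and 0.03 and that within SCI 0.43 and 0.46 (n = 3). Both probes had 45 bases before the junction and 15 after it. With the spike-in scaling their changes were -2.90 and -3.17.

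By detection, 2607 members (91.7%) were well above background on all 6 arrays, 205 (7.21%) on all sham arrays but not on all SCI arrays, and 30 (1.06%) on all SCI arrays but not on all sham arrays. With the looser mark of a signal that is positive and significant, 92 were in sham alone and 20 in SCI alone. Among the linear probes kept, the shares by the stricter mark were 85.1%, 9.29% and 5.59%. Per array, 93.7% to 93.9% of the circRNA probes passed background in sham and 87.7% to 90.5% in SCI. Over all probes these ranges were 69.9% to 70.3% and 66.1% to 68.1%. The lowest value that passed background was 3.02 to 3.08 on the sham arrays and 3.33 to 3.54 on the SCI arrays. The median background signal was 32 to 33 in sham and 19 in SCI. A dim probe of equal value could thus pass in sham and fail in SCI, and the part of this in the counts was not tested. All 235 members detected throughout 1 group alone had a level under 6. The 205 sham members of this kind reached 5.57 at most, and 70 of them were on no SCI array, 61 on 1 and 74 on 2. The 30 SCI members reached 4.57, and 9 were on no sham array, 7 on 1 and 14 on 2. Of the 205, 72.7% had a 5′ arm of 29 to 34 bases, against 46.7% of the 30 and 40.8% of the 2607. The lowest member, RNO_CIRCpedia_8235_7_22, gave 3.24, 3.16 and 3.50 in sham and 1.05, 2.47 and 1.02 in SCI. The brightest circRNA probe that was not a member, RNO_CIRCpedia_7754_0_21 at 3.70, was well above background on 2 arrays of each group. Of the 204 circRNA probes not kept, 122 were well above background on no array.

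Where all 3 arrays of a group missed a probe, its change was bounded from below with the lowest signal that passed background on each of those arrays. Where the probe's own value on an array was higher than this signal, that value was used. These values describe how the probes were sorted by detection and carry no test here. The largest bound upward was that of RNO_CIRCpedia_6360_6_4, at 5.59, 5.13 and 5.27 in SCI and at 1.31, 1.00 and 1.02 in sham, at least 4.84-fold higher. RNO_CIRCpedia_7009_16_10 was at least 4.26-fold and RNO_CIRCpedia_5865_14_21 at least 3.16-fold higher in SCI. These 3 bounds upward depended on the scaling. On the log2 scale they were 2.28, 2.09 and 1.66 with the deposited values, 0.68, 0.67 and 0.32 with normexp, and 0.39, 0.19 and -0.34 with the scaling on spike-in RNAs described below, where a bound under 0 leaves the direction of RNO_CIRCpedia_5865_14_21 unsettled. Downward, RNO_CIRCpedia_5718_12_16 was at least 7.60-fold lower in SCI, but its sham arrays gave 5.20, 9.29 and 4.61, and without sham 2 the bound was 1.46 on the log2 scale. RNO_CIRCpedia_9828_16_1004, at 5.26, 5.38 and 5.15 in sham, was at least 3.41-fold lower, and RNO_CIRCpedia_408_16_7, at 5.20, 5.36 and 5.09, at least 3.34-fold lower. The 3 bounds downward were 2.93, 1.77 and 1.74 on the log2 scale with the deposited values, 1.36, 0.52 and 0.46 with normexp, and 4.85, 3.74 and 3.72 with the scaling on spike-in RNAs. Of the probes on no array of the other group, 22 of the 70 in sham and 7 of the 9 in SCI had a bound of 2-fold or more. The probe with the largest bound in each direction is shown with the bases after the junction in capitals.
RNO_CIRCpedia_6360_6_4: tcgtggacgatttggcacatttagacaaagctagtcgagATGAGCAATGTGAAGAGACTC
RNO_CIRCpedia_5718_12_16: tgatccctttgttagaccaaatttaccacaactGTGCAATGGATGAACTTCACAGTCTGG

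Most circRNA probes that changed were lower after SCI. Of the 2607 members well above background on all 6 arrays, limma called 707 (27.1%), that is, 2-fold or more and an adjusted p under 0.05. The share was 29.4% over all probes that met the same condition. Of the members, 579 (22.2%) fell, against 15.7% of all such probes, and 128 rose, against 13.7%. All 3 SCI arrays lay below all 3 sham arrays in 1310 members and above them in 655. Over all probes, 36.6% and 35.6% were separated in these directions. The median change was -0.27 for the members and 0.02 for the linear probes. With the members detected in 1 group included, 865 of 2842 were called (30.4%), against 36.0% of all probes kept, and 158 of these were detected throughout 1 group alone, where the rule fixes the direction. The sham arrays had medians of 7.32, 7.27 and 7.22 over the 2607 probes and the SCI arrays 6.93, 6.92 and 6.97, so that the groups did not overlap. The linear probes had medians between 7.70 and 7.72 on all 6 arrays. Quantile normalization gives the arrays the same distribution over all probes, most of which are linear. These equal medians and the linear probes' median change of 0.02 are therefore largely set by the normalization.

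The scaling and the background correction set the size of these counts. With normexp background correction, 45 members on all 6 arrays rose and 265 fell. Its offset of 50 by itself makes the changes of dim probes smaller, so that fewer of them reach 2-fold. The probes of 8 spike-in RNAs that were above background on all 6 arrays were 0.96 to 2.43 brighter on the SCI arrays before any normalization. Scaling on them moved the median of the linear probes to -1.55 and that of the members to -1.88, with 5 members higher and 2298 lower. Calls over all probes were not counted under these settings, so these counts have no background share to be set against.

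The falls were spread over all levels. Under 6, 159 of 645 members on all 6 arrays fell (24.7%), against 17.3% of all probes at that level. Of the 645, 32 rose, against 1458 of all 8517 probes. From 6 to 9, 343 of 1547 fell (22.2%), against 16.8%, and 80 rose, against 2247 of all 16428 probes. At 9 or more, 77 of 415 fell (18.6%), against 12.9%, and 16 rose, against 1236 of all 11239 probes. The median changes at the 3 levels were -0.33, -0.25 and -0.26, where those of the linear probes were 0.08, 0.03 and -0.02. Across the 2607 members the Pearson correlation of level with change was 0.01, as a description over probes that share the same arrays.

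Of the 128 rises, 16 reached 4-fold, or 2 on the log2 scale, and the largest stood apart. RNO_CIRCpedia_5625_1_12 was at 7.51, 7.07 and 7.13 in sham and at 13.88, 13.91 and 13.43 in SCI, a rise of 6.50 (SE 0.19, adjusted p = 3.1e-05 in limma), or 90.5-fold. Every SCI array of this probe was above 13, so that the rise was shared by the 3 rats. RNO_CIRCpedia_9210_0_27 followed with a rise of 3.81 (SE 0.31, adjusted p = 0.0002 in limma), from 3.82, 3.48 and 4.32 to 8.24, 7.36 and 7.45. RNO_CIRCpedia_9131_2_16 rose by 2.75 (SE 0.24, adjusted p = 0.00025 in limma), from 5.12, 4.38 and 5.27 to 7.65, 7.66 and 7.72.

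The remaining 2 of the top 5 rises had a junction edge of the same sequence. RNO_CIRCpedia_2816_2_14 rose by 3.31 (SE 0.24, adjusted p = 0.00015 in limma), from 7.32, 6.84 and 6.38 to 10.11, 10.31 and 10.04. RNO_CIRCpedia_2817_10_33 rose by 3.09 (SE 0.22, adjusted p = 0.00014 in limma), from 6.74, 6.22 and 5.92 to 9.38, 9.52 and 9.24. As the sequences above show, these probes share the bases before the junction and differ after it. Their order over the 3 sham arrays was the same, as was that over the 3 SCI arrays. All 5 rises remained called under each scaling that was tried, the smallest value being 1.03 for RNO_CIRCpedia_9131_2_16 with the spike-in scaling. With that scaling RNO_CIRCpedia_5625_1_12 rose by 4.99 and RNO_CIRCpedia_9210_0_27 by 2.02. RNO_CIRCpedia_2816_2_14 then rose by 1.78 and RNO_CIRCpedia_2817_10_33 by 1.52. With normexp RNO_CIRCpedia_9210_0_27 rose by 1.86 and RNO_CIRCpedia_9131_2_16 by 1.63.

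The size of 1 further rise rested on 1 array. RNO_CIRCpedia_4209_14_28 was at 5.39, 5.85 and 6.16 in sham and at 7.01, 15.41 and 6.66 in SCI. Its mean change of 3.89 would have put it after the first of the rises, but the SD within SCI was 4.95 (n = 3) and the adjusted p in limma was 0.18. Without SCI 2 its change was 1.03 (adjusted p = 0.021 in limma), which is called, and the other SCI arrays lay above all 3 sham arrays. It was the only member on all 6 arrays with an SD over 1 within SCI, and 8 had one within sham.

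Of the 579 falls, 89 reached 2 on the log2 scale and 15 reached 3. The largest with the deposited scaling was that of RNO_CIRCpedia_8736_7_29, at 8.23, 8.37 and 8.40 in sham and 4.38, 4.59 and 4.53 in SCI, a change of -3.83 (SE 0.11, adjusted p = 3.1e-05 in limma), or 14.2-fold lower. A second probe with the same bases before the junction, RNO_CIRCpedia_5747_4_38, fell by 3.30 (SE 0.17, adjusted p = 6.1e-05 in limma) from a higher level, a mean of 10.48 in sham. RNO_CIRCpedia_9904_16_25 went from 11.27, 11.17 and 10.58 to 7.26, 7.45 and 7.74, a change of -3.53 (SE 0.22, adjusted p = 9.9e-05 in limma). RNO_CIRCpedia_6306_4_22 went from 9.82, 9.06 and 10.06 to 5.67, 6.79 and 6.26, a change of -3.41 (SE 0.36, adjusted p = 0.00049 in limma). The groups of these 3 probes named by the rule did not overlap, and the gap between them was wider than the range within either. With normexp RNO_CIRCpedia_8736_7_29 changed by -2.24, less than RNO_CIRCpedia_5747_4_38 (-2.91), RNO_CIRCpedia_9904_16_25 (-3.15) and RNO_CIRCpedia_6306_4_22 (-2.66).

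The other 2 of the largest falls each had a partner at a shared edge with a smaller change. RNO_CIRCpedia_4762_13_27 went from 12.44, 12.18 and 11.79 to 8.30, 8.81 and 9.13, a change of -3.39 (SE 0.26, adjusted p = 0.00017 in limma). A probe that shares the bases after its junction, RNO_CIRCpedia_6262_16_1007, fell by 3.07 (SE 0.30, adjusted p = 0.00036 in limma), from 11.39, 11.17 and 10.64 to 7.45, 8.16 and 8.37. A probe that shares the bases before it, RNO_CIRCpedia_4763_15_14, had a change of -0.53 (SE 0.11, adjusted p = 0.0056 in limma), under 2-fold. RNO_CIRCpedia_2431_16_10 went from 8.27, 8.29 and 8.03 to 4.53, 4.79 and 5.36, a change of -3.30 (SE 0.23, adjusted p = 0.00012 in limma), or -1.96 with normexp. The probe at the same edge with a longer 5′ arm, RNO_CIRCpedia_7706_0_6, fell by 1.76 (SE 0.22, adjusted p = 0.00081 in limma). The 5 probes below show the shared edges, with the bases after the junction in capitals: RNO_CIRCpedia_4762_13_27 and RNO_CIRCpedia_6262_16_1007 share them, while RNO_CIRCpedia_4762_13_27 and RNO_CIRCpedia_4763_15_14, like the last 2, share those before.
RNO_CIRCpedia_4762_13_27: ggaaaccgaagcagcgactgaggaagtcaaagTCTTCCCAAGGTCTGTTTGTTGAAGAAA
RNO_CIRCpedia_6262_16_1007: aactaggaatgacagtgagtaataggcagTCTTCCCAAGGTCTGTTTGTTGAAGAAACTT
RNO_CIRCpedia_4763_15_14: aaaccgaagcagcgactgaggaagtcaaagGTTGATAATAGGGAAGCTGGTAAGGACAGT
RNO_CIRCpedia_2431_16_10: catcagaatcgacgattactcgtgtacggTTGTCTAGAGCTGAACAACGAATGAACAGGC
RNO_CIRCpedia_7706_0_6: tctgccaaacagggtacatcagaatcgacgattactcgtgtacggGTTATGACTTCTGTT

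Probes with short 5′ arms fell more often than those with long ones. The grouping by arm length was chosen after the values had been seen, and is given as a description. The 485 members on all 6 arrays with 29 bases before the junction and 31 after it had a median change of -0.68, and 176 of them fell (36.3%) while 6 rose. The 510 members with 45 bases before the junction and 15 after it had a median change of -0.02, with 71 falls (13.9%) and 37 rises. Between these ends the median was -0.59 for 5′ arms of 29 to 34 bases (n = 1063), -0.14 for 35 to 40 (n = 653) and -0.05 for 41 to 45 (n = 891). The share that fell was 32.3%, 17.8% and 13.5%, where 15.7% of all probes on all 6 arrays fell.

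The same order held on the arrays and at each level. For the members with 29-base arms, the sham arrays had medians of 6.82, 6.84 and 6.75 and the SCI arrays 5.85, 5.85 and 5.90. That of the members with 45-base arms was 7.55, 7.58 and 7.48 in sham and 7.61, 7.54 and 7.60 in SCI. The gap between these medians was therefore 0.73 to 0.74 in sham and 1.69 to 1.76 in SCI, without overlap. Arms of 29 to 34 bases had a median change of -0.56 under 6, -0.60 from 6 to 9 and -0.66 at 9 or more, against 0.05, -0.05 and -0.09 for arms of 41 to 45. The probes with short 5′ arms were also dimmer, with a median level of 6.33 at 29 bases and 7.54 at 45, and their median GC content was 45% at both lengths. The difference of the medians, 29 minus 45 bases, was -0.66 with the deposited values, -0.35 with normexp and -0.78 with the spike-in scaling. The part that linear transcripts bound by the longer arm may have in these values was not tested.

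Probes that share an edge allowed this comparison with the same bases beside the junction, on the same exon or on near-identical copies of it. In 34 pairs of members that shared the bases before the junction, 1 probe had 29 and the other 45 of them, and in 30 pairs the change of the probe with 29 bases was the lower. The median difference was -0.59. Over the 116 such pairs whose arms differed by 10 bases or more, the probe with the shorter 5′ arm had the lower change in 105, with a median difference of -0.56. Where the bases after the junction were shared, this was so in 58 of 88 pairs, with a median difference of -0.28. The pair with the largest difference is shown.
RNO_CIRCpedia_3466_16_27: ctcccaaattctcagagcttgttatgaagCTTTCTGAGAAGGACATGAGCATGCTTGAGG
RNO_CIRCpedia_3467_0_20: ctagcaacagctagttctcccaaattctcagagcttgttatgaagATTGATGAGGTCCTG
RNO_CIRCpedia_3466_16_27 went from 6.97, 6.75 and 6.34 in sham to 4.74, 4.83 and 4.75 in SCI, a change of -1.91 (SE 0.17, adjusted p = 0.00028 in limma), or -0.90 with normexp. RNO_CIRCpedia_3467_0_20, which holds the same 29 bases before its junction and 16 more upstream, was at 9.39, 9.16 and 9.11 in sham and 9.41, 9.14 and 9.39 in SCI, and its groups overlapped (change 0.09, SE 0.13, adjusted p = 0.55 in limma).

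The bases at a junction edge were often shared by several circRNA probes. Of the 3046, 800 shared the 20 bases before the junction with another circRNA probe and 739 the 15 bases after it, which linked 1320 probes into 489 families of up to 9. Probes of a family are not independent, since they share sequence. Among the members, 455 families had 2 or more, with 1201 members. Of these families, 403 had 2 or more members well above background on all 6 arrays, 1054 in number, of which 24.7% fell and 2.37% rose, against 15.7% and 13.7% of all such probes. Of all 2607 members on all 6 arrays, in families or not, 22.2% fell and 128 rose. A call was present in 167 of the 403 families, where 150 had falls only, 16 rises only and 1 both. In 47 of them every member on all 6 arrays fell. The changes of 2 members on all 6 arrays that shared the bases before the junction had a Pearson correlation of 0.71 over 382 pairs, and the median of their absolute difference was 0.27. For shared bases after the junction the values were 0.62 over 393 pairs and 0.35. These correlations describe probes on the same arrays. Of the 128 pairs with both members called, 72 with a common 5′ edge and 56 with a common 3′ edge, 1 pair changed in opposite directions. Levels within a pair differed by a median of 0.60 and 0.84 and by up to 5.78.

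The 2 families with the most members had 8 each. In the first, which RNO_CIRCpedia_3025_0_38 belongs to, all 8 were well above background on all 6 arrays, and 4 fell with the deposited scaling, none of them by 2-fold with normexp. The changes ran from -1.57 to -0.13 and the levels from 5.49 to 7.86. In 7 of the 8 the SCI arrays lay below the sham arrays without overlap. Over all probes on all 6 arrays, 15.7% fell and 36.6% were separated in this direction. The 3 probes at 1 edge of this family, of which the first reaches furthest upstream, are shown with a linear probe that shares 42, 29 and 26 bases with them. For the linear probe the 42 shared bases are in capitals.
RNO_CIRCpedia_3025_0_38: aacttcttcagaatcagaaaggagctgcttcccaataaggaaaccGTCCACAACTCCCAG
RNO_CIRCpedia_6886_13_22: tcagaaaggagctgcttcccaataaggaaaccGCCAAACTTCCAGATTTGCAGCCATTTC
RNO_CIRCpedia_3030_16_1508: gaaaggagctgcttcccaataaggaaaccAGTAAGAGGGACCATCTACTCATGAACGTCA
rclstr_66628_53_28: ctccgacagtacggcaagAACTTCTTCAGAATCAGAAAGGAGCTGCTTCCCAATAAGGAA
RNO_CIRCpedia_3025_0_38 was at 7.79, 7.65 and 7.55 in sham and 7.54, 7.50 and 7.55 in SCI, a change of -0.13 (SE 0.10, adjusted p = 0.30 in limma). RNO_CIRCpedia_6886_13_22 was at 6.46, 6.20 and 6.32 in sham and 5.37, 5.19 and 5.20 in SCI, a change of -1.07 (SE 0.12, adjusted p = 0.00053 in limma). RNO_CIRCpedia_3030_16_1508 was at 6.36, 6.25 and 5.80 in sham and 5.01, 4.56 and 4.94 in SCI, a change of -1.30 (SE 0.20, adjusted p = 0.0017 in limma). The linear probe rclstr_66628_53_28 was at 8.24, 8.15 and 7.91 in sham and 8.15, 7.92 and 7.98 in SCI, with a change of -0.08 (SE 0.13, adjusted p = 0.60 in limma). The changes of the 3 circRNA probes thus stood in the order of their 5′ arms of 45, 32 and 29 bases, although these probes were not tested against each other. Relative to the linear probe on the same arrays, the changes were -0.05 (SE 0.07, adjusted p = 0.64), -0.99 (SE 0.09, adjusted p = 0.00061) and -1.22 (SE 0.10, adjusted p = 0.00039) in limma.

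At another edge of this family, 3 further probes continue into the same bases after the junction as RNO_CIRCpedia_3030_16_1508.
RNO_CIRCpedia_3026_13_12: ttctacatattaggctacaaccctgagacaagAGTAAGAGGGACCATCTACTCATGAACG
RNO_CIRCpedia_3027_3_18: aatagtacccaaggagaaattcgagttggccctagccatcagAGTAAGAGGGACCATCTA
RNO_CIRCpedia_3028_16_16: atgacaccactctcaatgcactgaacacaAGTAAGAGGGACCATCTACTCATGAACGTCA
RNO_CIRCpedia_3026_13_12 had a change of -1.57 (SE 0.14, adjusted p = 0.0003 in limma), from a mean of 7.24 ± 0.25 in sham to 5.67 ± 0.03 in SCI (SD, n = 3). RNO_CIRCpedia_3028_16_16 had one of -1.28 (SE 0.13, adjusted p = 0.00043 in limma), from 8.00 ± 0.18 to 6.72 ± 0.11 (SD, n = 3). RNO_CIRCpedia_3027_3_18, with 42 bases before the junction, had one of -0.66 (SE 0.15, adjusted p = 0.0087 in limma), which was under 2-fold. The order by arm length did not hold throughout at this edge. RNO_CIRCpedia_3026_13_12, with 32 bases before the junction, fell more than RNO_CIRCpedia_3028_16_16, with 29. With normexp background correction the 4 falls of this family were under 2-fold, at -0.94 for RNO_CIRCpedia_3026_13_12, -0.93 for RNO_CIRCpedia_3028_16_16, -0.56 for RNO_CIRCpedia_3030_16_1508 and -0.54 for RNO_CIRCpedia_6886_13_22. In the second family of 8 members, which RNO_CIRCpedia_2330_16_36 belongs to, 6 were on all 6 arrays, with changes from -1.29 to -0.52, and 2 of these fell, neither by 2-fold with normexp (RNO_CIRCpedia_7684_11_16 at -0.49 and RNO_CIRCpedia_7685_0_1013 at -0.83). The other 2 members were detected throughout sham alone, where the rule fixes the direction. Of the 7 families of 7 members, those of RNO_CIRCpedia_2046_0_14 and RNO_CIRCpedia_1762_16_26 had falls in each of their 6 members on all 6 arrays, with medians of -1.94 and -1.57, and those of RNO_CIRCpedia_1499_2_18 and RNO_CIRCpedia_4050_1_8 had no call, with medians of 0.36 and -0.47. Over all probes on all 6 arrays, 15.7% fell and 13.7% rose.

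CircRNA probes were next set against linear probes that share a run of at least 20 bases with them. There were 464 such pairs, with runs of up to 49 bases and a median of 31, and 394 had both probes well above background on all 6 arrays. The run lay on the 5′ arm in 251 of these and on the 3′ arm in 142. Shared sequence places both probes on the same exon or on near-identical copies of it, which could not be told apart here. Pairs of linear probes that share 20 or more bases, 848 in number, were tested in the same fit. By the same thresholds in limma, the circRNA probe's change differed from that of its linear probe in 56 of 394 pairs (14.2%), where 7.49% of all 1242 pairs passed. In 49 of the 56 the circRNA probe was the lower. Of the 848 linear pairs, 37 passed (4.36%), and the first probe was the lower in 14. The median difference was -0.11 for the circRNA pairs and 0.00 for the linear pairs. With the run on the 5′ arm it was -0.07 and 11.95% of the circRNA pairs passed. With the run on the 3′ arm it was -0.41 and 18.31% passed. With normexp 30 circRNA pairs passed, in 24 of which the circRNA probe was the lower. Their median difference over all pairs was -0.070 with normexp and -0.16 with the spike-in scaling.

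These pairs were chosen after the data had been seen, and the difference again went with the length of the shared run. With 20 to 29 shared bases the median absolute difference was 0.52 over 164 circRNA pairs, of which 20.7% passed. With 30 to 39 it was 0.27 over 156 pairs (13.5%), and with 40 or more 0.07 over 74 pairs (1.35%). In the linear pairs these medians were 0.23, 0.19 and 0.07, and 7.74%, 4.79% and 0.31% passed. The lengths were not matched: circRNA runs ended at 49 bases, while linear runs could take any length short of the 60-base probe. For linear pairs the length was also counted from all shared 20-base stretches, not from the longest run. The Pearson correlation of the changes within the circRNA pairs was 0.57, 0.68 and 0.93 at the 3 lengths, and 0.83, 0.88 and 0.96 within the linear pairs, as a description over pairs on the same arrays. In 44 of the 394 pairs both probes fell (11.2%), in 8 both rose (2.03%), and in 253 neither was called (64.2%). Of the linear pairs, 10.6%, 9.43% and 69.7% were of these kinds. The circRNA probe fell while the linear probe was not called in 58, and the linear probe fell while the circRNA probe was not called in 14. The circRNA probe alone rose in 3 and the linear probe alone in 13. In all, 1 probe alone was called in 22.3% of the circRNA pairs and in 10% of the linear pairs. In 1 pair the circRNA probe fell and the linear probe rose.

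The pairs at the extremes are shown with the shared run in capitals. In the first, the shared bases end at the back-splice junction of the circRNA probe.
RNO_CIRCpedia_6262_16_1007: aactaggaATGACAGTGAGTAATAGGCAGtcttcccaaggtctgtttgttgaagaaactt
rclstr_24439_1157_12: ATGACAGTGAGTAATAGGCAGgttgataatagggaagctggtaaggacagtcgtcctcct
RNO_CIRCpedia_6262_16_1007, with the values given above, fell by 3.07. The linear probe was at 7.56, 7.72 and 7.56 in sham and 7.41, 7.47 and 7.27 in SCI, a change of -0.23 (SE 0.11, adjusted p = 0.10 in limma). The difference of -2.84 (SE 0.31, adjusted p = 0.0011 in limma) was the largest toward a lower circRNA probe. The bases that follow the junction in RNO_CIRCpedia_4763_15_14 above, which changed by -0.53, are those that follow the shared run in this linear probe.

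The largest difference the other way was that of RNO_CIRCpedia_9656_7_22.
RNO_CIRCpedia_9656_7_22: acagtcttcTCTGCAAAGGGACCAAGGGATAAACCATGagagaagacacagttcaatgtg
rclstr_4541_610_16: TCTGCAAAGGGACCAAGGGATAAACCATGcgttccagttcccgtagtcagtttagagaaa
RNO_CIRCpedia_9656_7_22 was at 4.92, 5.20 and 5.15 in sham and 6.15, 6.08 and 5.89 in SCI, a change of 0.95 (SE 0.13, adjusted p = 0.0011 in limma), under 2-fold. Its linear probe was at 9.55, 9.47 and 9.37 in sham and 7.37, 7.80 and 7.84 in SCI, a fall of 1.79 (SE 0.16, adjusted p = 0.00025 in limma). The difference was 2.74 (SE 0.21, adjusted p = 0.00028 in limma), with the groups of both probes apart in opposite directions. With the spike-in scaling the change of the circRNA probe was -0.83.

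Where 40 or more bases were shared, the probe with the largest change fell together with its linear probe.
RNO_CIRCpedia_6504_0_5: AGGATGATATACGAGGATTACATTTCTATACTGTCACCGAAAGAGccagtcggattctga
rclstr_12347_624_5: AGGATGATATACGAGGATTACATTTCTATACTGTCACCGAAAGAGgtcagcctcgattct
RNO_CIRCpedia_6504_0_5 was at 11.66, 11.75 and 11.64 in sham and 9.42, 9.50 and 10.42 in SCI, a change of -1.91 (SE 0.27, adjusted p = 0.0014 in limma). Its linear probe went from 12.41, 12.17 and 12.07 to 10.07, 10.18 and 11.02, a change of -1.80 (SE 0.27, adjusted p = 0.0016 in limma). SCI 3 was the highest of the SCI arrays in both probes. The difference of -0.11 (SE 0.10, adjusted p = 0.43 in limma) did not pass the test. Among the 15 probes of the highest level, the largest rise and the largest fall, 2 had a linear probe in these pairs. RNO_CIRCpedia_4353_10_9 shared 29 bases with a linear probe that changed by -0.24, where its own change was -0.25. RNO_CIRCpedia_2431_16_10 shared 25 bases with a linear probe that changed by -1.80, where its own change was -3.30.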

How the data were processed

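Spinal cord RNA of 3 sham and 3 SCI rats was measured on 6 one-colour Agilent arrays. The authors deposited the output of Agilent Feature Extraction 10.7.1.1 (version per the submitters' processing notes) for each array, in which the processed signal is an intensity after background subtraction and other marks show spots well above background or saturated. No circRNA spot was saturated. The authors also deposited a table of log2 values after quantile normalization, which correlated with the quantile-normalized scanner values at 0.99999 or more and was used here.

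A probe was kept when at least 50% of its spots passed this mark on every array of either group. The comparison of SCI with sham used lmFit and eBayes (limma 3.58.1, R 4.3.3) over all 42289 probes kept, with Benjamini-Hochberg adjustment over these. A call needs 2-fold and an adjusted p under 0.05. With 3 arrays per group, a single value tested by exact permutation cannot go below p = 0.1, so that none is given. Pairs of probes that share sequence were tested by the same fit on the difference of their log2 values, where linear pairs used probes with at most 5 partners. Sequences and summaries were handled in python 3.11.15 with pandas 2.3.3 and numpy 2.4.6.

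Probes named are the 5 of the highest level, the 5 largest rises and falls with an adjusted p under 0.05 among those on all 6 arrays, the 3 largest lower bounds in each direction, and those nearest the level thresholds. Members and lists were chosen with earlier results of these data known. Rules that needed host genes, namely lists of host genes, circRNA biogenesis factors, the hosts with the most members and cell type markers, were not applied, since the genes of these probes are not named in the sources used here. Families with shared junction edges, pairs with shared sequence and the split by arm length took their place after the data were seen, as did partners of named probes. Alternatives were other normalizations, filters, detection marks, thresholds and tests, and leaving out each array.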

Additional observations from a re-analysis of the deposited data

How the results depend on the processing

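Direction held for the median of the circRNA probes, for the difference between 29-base and 45-base arms and for the pairs with linear probes under every alternative that was run, while sizes and counts moved with the scaling. With the 75th percentile shift the medians were -0.36 for all members on 6 arrays, -0.87 and -0.092 for 5′ arms of 29 and 45 bases and -0.78 for their difference, and the median pair difference was -0.16. With normexp they were -0.17, -0.36 and -0.35 for the difference, and -0.070 for the pairs. Calls then numbered 310 (45 higher, 265 lower), 316 over all members, and 30 pairs, 24 with the circRNA probe lower. With the spike-in shift the medians were -1.88, -2.39, -1.61 and -0.78 for the difference, with 2303 calls (5 higher, 2298 lower), 2518 over all members and a median pair difference of -0.16. Under it the changes of 7 named probes went from above to below 0, 2 of which had overlapping groups with the deposited values (RNO_CIRCpedia_6647_0_4 and RNO_CIRCpedia_3467_0_20). They were RNO_CIRCpedia_2993_6_17 (-0.98), RNO_CIRCpedia_1838_14_18 (-0.88), RNO_CIRCpedia_6647_0_4 (-1.501), RNO_CIRCpedia_5603_1_19 (-0.70), RNO_CIRCpedia_1267_14_26 (-0.73), RNO_CIRCpedia_9656_7_22 (-0.83) and RNO_CIRCpedia_3467_0_20 (-1.36). The cause of these shifts was not tested. With no filter the median was -0.32, over all 3046 probes, and the pair median -0.13. With the looser detection mark, positive and significant, the median was -0.31 and 92 probes in place of 205 were detected in sham alone. An adjusted p under 0.05 with no fold minimum gave 1715 calls (525 higher, 1190 lower), 1903 over all members, and 193 pairs, 150 with the circRNA probe lower. Calls over all probes were not counted under the alternatives, so these counts stand without a background share. Leaving out 1 array at a time gave 679 to 765 calls, medians of -0.72 to -0.67 for 29-base arms, -0.70 to -0.66 for the difference from 45-base arms, and -0.14 to -0.10 for the pairs.

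With a replicate block on the sample numbers, 701 members on 6 arrays were called, 855 over all members, and 56 pairs. Samples of the same number deviated from their group means with correlations of -0.11, -0.08 and -0.16, and share only a number. Planned pairings through host genes, with the brightest linear probe or with both sides of the junction required, were not run, since hosts are not known here. Normexp and the spike-in shift moved the 6 lower bounds given to between -0.34 and 4.85 on the log2 scale. Of 47 named probes with a tested change, 18 kept call and direction throughout, and 8 falls lost the 2-fold call under normexp. Dim signal limits the 31.0% of members under level 6, where replicates spread most.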
